A study of Homo sapiens with 2 samples.

Results

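CKB, the brain-type creatine kinase, and the other genes that make, carry or use creatine were examined in SBC-3 cells, an adherent cell line of small-cell lung cancer (SCLC), after depletion of the long noncoding RNA HOTAIR. The members were named by symbol: CKB, CKM, CKMT1A, CKMT1B, CKMT2, GATM, GAMT and SLC6A8. They were chosen on a measured value, the CKB signal, which was about 4 times as high in HOTAIR-depleted cells on both of its spots, so the CKB ratio is given as a description. Of the 8 genes, 7 had a probe, with 9 probes and 16 spots in all, among 19061 named genes, 42402 probes and 58717 spots that are not controls. CKMT1B had none.

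The cells were transfected with #1 siHOTAIR, a small interfering RNA (siRNA) against HOTAIR, or with the control siGFP, which targets green fluorescent protein, a jellyfish gene absent from human cells. RNA of each was hybridized to 1 one-colour Agilent array, so there were 2 arrays of the same cell line and no replicate. No test between the conditions was possible, and the culture and the array cannot be told apart from the siRNA. HOTAIR itself read 108 against 244 on its 1 probe, 57.2% lower in #1 siHOTAIR-transfected cells, a log2 ratio of -1.22 with a measurement SD of 0.21. Both siRNAs are shown because they are all that the labels set apart between the arrays, 19 bases each from 5′ to 3′ without the overhang, with bases 2 to 8 of the antisense strand, its seed, in capitals.
#1 siHOTAIR sense: gaacgggaguacagagaga
#1 siHOTAIR antisense: uCUCUCUGuacucccguuc
siGFP sense: cuacaacagccacaacguc
siGFP antisense: gACGUUGUggcuguuguag

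Creatine is made from arginine and glycine by GATM and methylated to its final form by GAMT, and cells also take it up from outside through the transporter SLC6A8. Creatine kinases move the phosphate of ATP onto creatine and back, which buffers and carries energy where demand is sudden. CKB is the cytosolic enzyme of brain and many epithelia and is known as a marker of SCLC, CKM is the cytosolic enzyme of muscle, and CKMT1A, CKMT1B and CKMT2 are the mitochondrial enzymes, the last of these in heart and skeletal muscle.

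In #1 siHOTAIR-transfected cells the signal of CKB was 3.99-fold higher, both probes of CKMT1A were 1.62- and 1.84-fold higher, GAMT was 11.9% lower, and the probes of SLC6A8 went in opposite directions. GATM, CKM and CKMT2 were not well above background on either array. A signal here is the processed signal of the scanner software, an intensity with background and spatial trends removed. A log2 ratio is #1 siHOTAIR over siGFP after each array was set to its 75th percentile. The measurement SD comes from repeated spots within an array and does not cover the spread between cultures. Of the 6 member probes compared, 1 (CKB) differed at least 2-fold, beside 7.4% of the 24117 probes compared and 3.03% of the 21428 probes well above background on both arrays. At least 1.5-fold, 4 were higher and 1 was lower, beside 12.5% of the latter probes in either direction. The median log2 ratio of the 6 probes was 0.72, and that of all compared probes was 0.01. Nothing is read from the count that holds CKB, since its ratio chose the genes.

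**Figure D1:**
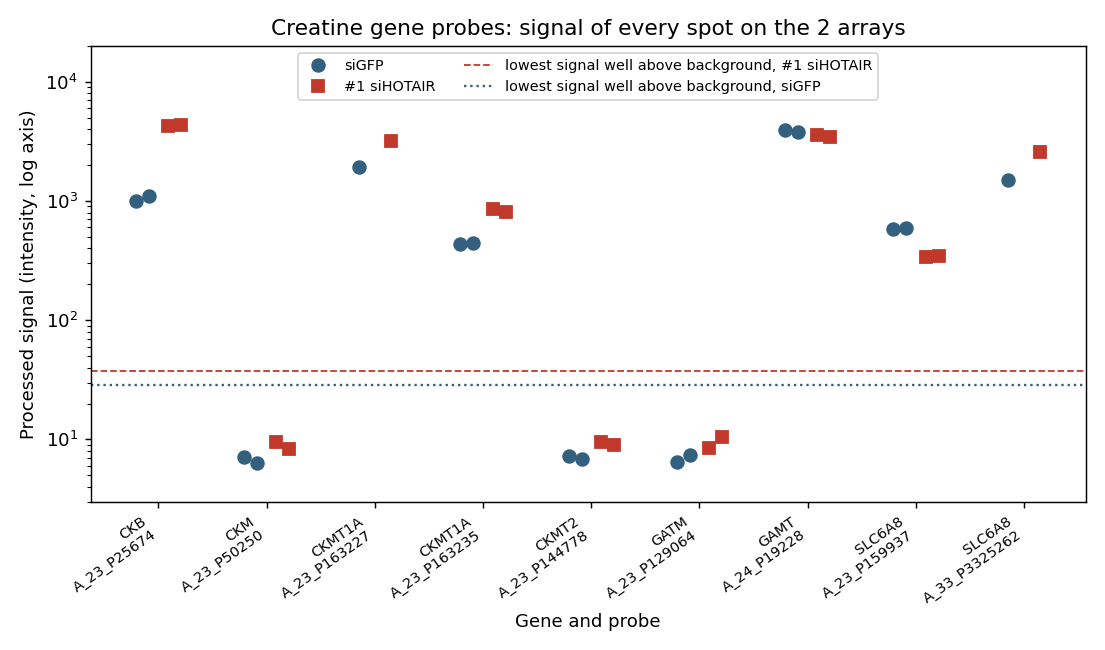
Processed signal (log axis) of every spot of the 9 creatine gene probes, with siGFP as circles and #1 siHOTAIR as squares, and dashed lines at the lowest signals well above background (37.3 and 28.6). The CKB and CKMT1A spots of the #1 siHOTAIR array sit above those of the siGFP array, the SLC6A8 probes move apart, and CKM, CKMT2 and GATM stay below the lines.

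The plot of spot signals shows 10 member spots well above background on both arrays and 6 on neither. None of the 16 spots was an outlier or saturated. The scanner software put the error of the 10 bright spots at no more than 10.4% of the signal.

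CKB was read by 1 probe, A_23_P25674 (NM_001823), printed on 2 spots. The first spot read 4298 in #1 siHOTAIR- and 1004 in siGFP-transfected cells, a 4.15-fold difference. The second spot read 4364 and 1099, a 3.85-fold difference. The 2 spots lay far apart on the array. They differed by 0.02 and 0.13 on the log2 scale within an array, and the arrays differed by 2.00. The spots are repeats within 1 array per condition and CKB was chosen on both, so their agreement is a description. Averaged, the probe read 4331 against 1050, a log2 ratio of 2.00 with a measurement SD of 0.06. The SD of the ratios of the 2 spots was 0.08. Spots printed within 5 rows and columns of them had a median log2 ratio of 0.07 (n = 62) and 0.00 (n = 60), beside 0.01 for all compared probes. Both lay outside the upper 37.5% of the 384 rows, which 1 of the alternatives leaves out. In RNA of a whole culture, more RNA per cell and more cells that make it cannot be told apart.

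The place of CKB among all probes is a description, since the ratio chose the gene. A 4-fold or larger increase was read for 1.14% of the compared probes, and the averaged CKB probe, at 3.99-fold, lay just outside that set. Among 5291 probes with at least 2 spots that were well above background on both arrays, 4 had a ratio as high as that of CKB, itself included. At or above its level there were 4599 probes well above background on both arrays, of which 23 were at least 2-fold higher and 20 at least 2-fold lower. CKB had the highest ratio of these, and the second, for VGF, a neuropeptide precursor, was 3.42-fold.

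**Figure D2:**
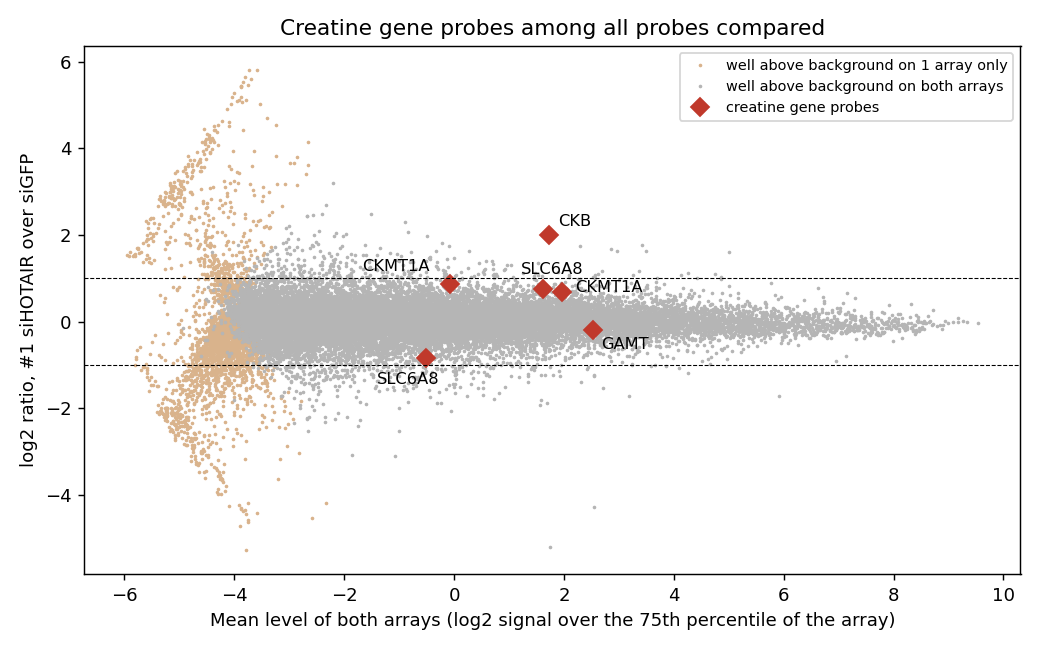
Log2 ratio of #1 siHOTAIR over siGFP against the mean level on both arrays (log2 signal over the 75th percentile), for all 24117 probes compared, with the 6 creatine gene probes as diamonds and dashed lines at 2-fold. CKB, at 2.00, is the only creatine gene probe beyond the lines, and the wide ratios at the left belong mostly to probes well above background on 1 array only.

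The plot of ratio against level shows that the widest ratios on these arrays were read from dim probes, while the 6 creatine gene probes lay in the brighter part where ratios were narrower.

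The promoters of the cytosolic enzymes are shown, that of CKB because its signal differed most among the members and that of CKM because it stayed at background. The RefSeq sequences (GRCh38.p14, minus strand) of the 120 bases before each start are given. Each TATAAA, a form of the TATA box, and each CCAAT, the CCAAT box, is in capitals.
CKB chr14:103522831-103522950: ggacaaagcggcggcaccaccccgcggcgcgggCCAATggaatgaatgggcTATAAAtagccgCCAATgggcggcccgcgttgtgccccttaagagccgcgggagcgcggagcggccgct
CKM chr19:45322876-45322995: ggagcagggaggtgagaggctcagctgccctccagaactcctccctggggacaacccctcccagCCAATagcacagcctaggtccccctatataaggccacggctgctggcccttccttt
The CKB window held 1 TATAAA, starting 69 bases before the start, 2 CCAAT, starting at 87 and 57, and 1 GGGCGG (GC box) at 52, next to the second CCAAT with no overlap. It held no CANNTG (E box, the motif of the muscle factors MYOD1 and MYOG). The CKM window held 1 CCAAT at 56 and 1 CANNTG at 99, and neither TATAAA nor GGGCGG. Only the exact letters were searched, so the similar stretch tatataag in the CKM window was not counted. A lack of a TATA box in CKM is therefore not shown. On both strands of the 35116 windows of this length, TATAAA was present in 5.63%, CCAAT in 20.4%, GGGCGG in 34.0% and CANNTG in 37.4%. These are matches of letters, and binding was not measured.

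CKMT1A, the mitochondrial creatine kinase of tissues other than muscle, was higher in #1 siHOTAIR-transfected cells on both of its probes (NM_001015001). Probe A_23_P163227, with 1 spot, read 3211 against 1921, a log2 ratio of 0.70 with a measurement SD of 0.08. Probe A_23_P163235 read 854 against 434 on 1 spot and 815 against 446 on the other, 1.91- and 1.77-fold. Averaged it read 834 against 440, a log2 ratio of 0.88 with a measurement SD of 0.08. All 3 spots were higher in #1 siHOTAIR-transfected cells and none reached 2-fold. The ratios of the 2 probes differed by 0.18, with a measurement SD of 0.11 for that gap. Of 2652 genes with at least 2 probes well above background on both arrays, 51 (1.92%) had every probe at least 1.5-fold higher, CKMT1A among them.

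CKMT1A and CKMT1B are near-identical copies of one gene. Of the RefSeq promoter windows of 300 bases, 5 of CKMT1A and 2 of CKMT1B, a window of each shared an identical run of 275 bases. The probes are named for CKMT1A by their accession, and whether they also bind CKMT1B RNA was not tested.

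The muscle enzymes were at background. CKM (A_23_P50250) read 9.45 and 8.31 on its 2 spots in #1 siHOTAIR- and 7.11 and 6.31 in siGFP-transfected cells. CKMT2 (A_23_P144778) read 9.50 and 8.92 against 7.28 and 6.84. The lowest signals of spots well above background were 37.3 and 28.6, so no fold is given. Signals at background were offset between the arrays: over all probes that passed on neither array the median log2 ratio was 0.34, and CKM, CKMT2 and GATM lay between 0.34 and 0.41.

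Of the enzymes of synthesis, GATM, which makes the precursor guanidinoacetate, was not well above background, with 8.46 and 10.4 against 6.41 and 7.36 on the 2 spots of A_23_P129064. GAMT, which methylates it to creatine, was bright. The 2 spots of GAMT (A_24_P19228, NM_138924) read 3573 and 3436 in #1 siHOTAIR- and 3908 and 3797 in siGFP-transfected cells. Averaged they read 3504 against 3852, a log2 ratio of -0.18 with a measurement SD of 0.06. Both spots were lower by about the same amount, with log2 ratios of -0.18 and -0.19. Both lay in the upper 37.5% of the rows, so GAMT has no value without those rows.

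SLC6A8, the creatine transporter, gave opposite readings on its 2 probes, which carry the same accession (NM_005629). Probe A_23_P159937 read 342 against 588 on its first spot and 344 against 595 on its second. Averaged it read 343 against 592, 43.9% lower in #1 siHOTAIR-transfected cells, a log2 ratio of -0.83 with a measurement SD of 0.09. Probe A_33_P3325262, with 1 spot, read 2592 against 1495, 1.68-fold higher, a log2 ratio of 0.75 with a measurement SD of 0.08.

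The 2 spots of the first SLC6A8 probe gave nearly the same ratio, although 1 lay in the upper rows and 1 outside them. The ratios of the 2 probes differed by 1.58, with a measurement SD of 0.12 for that gap. Of the 2652 genes with at least 2 probes well above background on both arrays, 9 (0.339%) had 1 probe higher and another lower by at least 1.5-fold, SLC6A8 among them. No direction is therefore given for SLC6A8 as a gene.

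SLC6A10P, a near-identical pseudogene of SLC6A8, was looked up after these values had been seen. Its probe A_24_P15621 read 2132 against 1241, a log2 ratio of 0.73 with a measurement SD of 0.09, and A_33_P3247082 read 602 against 476, a log2 ratio of 0.29 with a measurement SD of 0.11. Both were higher in #1 siHOTAIR-transfected cells, like the second SLC6A8 probe. Whether any of these 4 probes binds RNA of both genes was not tested.

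The neighbours of CKB in the RefSeq gene order are LOC124903391, EIF5 and MARK3 on one side and TRMT61A, BAG5 and COA8 on the other. EIF5, a translation initiation factor, read 811 against 325 over 2 spots, 2.41-fold higher, a log2 ratio of 1.27 with a measurement SD of 0.09. MARK3, a kinase that lies between EIF5 and CKB, had a log2 ratio of 0.16. TRMT61A, a tRNA methyltransferase and the first gene on the other side, had 0.43 and 0.31 on its 2 probes. BAG5, a cochaperone, had -0.34. So 1 of the 4 neighbours compared was at least 2-fold higher, and it was not the one next to CKB. LOC124903391 and COA8 had no probe under these names.

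For likeness to CKB over the 2 arrays, 2366 probes of other named genes were considered. Each had at least 2 spots, all well above background, and a mean level within 2 log2 units of the CKB probe. The 5 with the nearest log2 ratio were OPA3, a mitochondrial protein (1.81), VGF (1.78), SEPTIN7, a cytoskeletal GTPase (1.41), MYBBP1A, a nucleolar protein (1.34), and PROCR, the protein C receptor (1.22). All 5 were below CKB, and the measure rests on 1 ratio for each gene.

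The wider pathway was described by lists, with 1 probe for each gene, beside all 13014 named genes compared, whose median log2 ratio was 0.02 and of which 6.15% differed at least 2-fold. In these counts a dim signal stands at its own level. The 4 creatine genes compared had a median of 0.72, with the higher SLC6A8 probe, and of 0.37 when the probes of a gene were combined by their median. Both medians hold CKB, whose ratio chose the genes, so nothing is read from them beside the other lists.

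Genes that supply arginine, glycine and methyl groups had a median of -0.06, with 20 of 24 compared, 8 above 0, 1 at least 2-fold higher and 2 at least 2-fold lower. ASS1, which makes the precursor of arginine, read 308 against 783 on 1 probe and 74.3 against 165 on the other, log2 ratios of -1.39 and -1.19 with measurement SDs of 0.13 and 0.18. Both ASS1 probes were thus lower, by 2.62- and 2.29-fold. OAT, the ornithine aminotransferase that lies on a route between ornithine and glutamate, read 2298 against 1022 over 2 spots, 2.18-fold higher, a log2 ratio of 1.12 with a measurement SD of 0.06. BHMT, which remethylates homocysteine, read 7.96 against 23.4 and was well above background on the siGFP array only, so no fold is given.

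Other enzymes of high-energy phosphate transfer had a median of 0.02, with 19 of 22 compared, 11 above 0 and 1 at least 2-fold higher. AK9, an adenylate kinase, read 46.8 against 7.16 on 1 spot, at least 1.58-fold higher with its siGFP signal set to the lowest one well above background there. Among the genes whose list probe passed on both arrays the highest was NME3, a nucleoside diphosphate kinase, at 0.45, and the lowest was AK5, an adenylate kinase, at -0.59 with a measurement SD of 0.35. The carriers and pores of the mitochondrial membranes, which pass ATP, ADP and creatine, had a median of 0.13 over 6 of 7 genes, from -0.12 for VDAC2 to 0.28 for SLC25A5, and 0 differed at least 2-fold.

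The other members of the SLC6 family and the second creatine carrier SLC16A12 had a median of -0.05, with 10 of 19 compared and 0 at least 2-fold apart. They ran from -0.88 for SLC6A9, a glycine transporter, to 0.60 for SLC6A16, an orphan member. SLC16A12 itself had a log2 ratio of -0.14 on its 1 probe above background, which had 1 spot and read 101850 against 108750. Its other probes read 8.06 against 6.09 and 9.48 against 7.28, at background on both arrays. The probes of SLC16A12 thus disagree widely, and whether the bright one reads SLC16A12 RNA was not tested. Transcription factors known to act on creatine kinase genes had a median of 0.17, with 9 of 11 compared, 7 above 0 and 0 at least 2-fold apart. The highest of those well above background on both arrays was ESR1, the estrogen receptor, at 0.34 with a measurement SD of 0.37. That ESR1 value rests on 1 spot, which read 67.2 against 51.4. The other probes of ESR1 were at background on both arrays, so no direction is given for it.

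**Figure D3:**
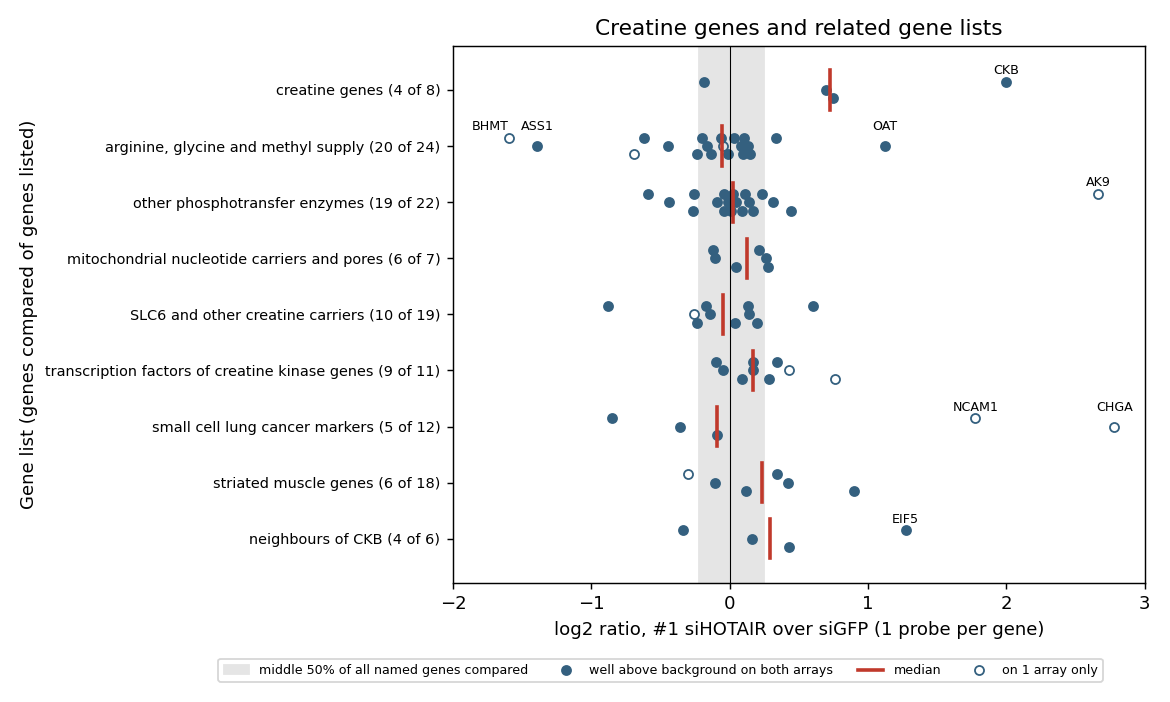
Log2 ratio of #1 siHOTAIR over siGFP for each gene of the 9 lists (1 probe for each gene), filled where well above background on both arrays and open where on 1 only, with the median as a bar and the middle 50% of all named genes as a grey band. The bar of the 4 creatine genes, at 0.72, holds CKB, whose ratio chose the genes, and counts SLC6A8 by the probe that was higher. It lies at 0.37 when the probes of a gene are combined, a value that still holds CKB. The other lists have medians between -0.10 and 0.29, and nothing is read from the gap.

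The cell type was checked against its markers. Of 12 SCLC markers 5 were compared, with a median of -0.10. NEUROD1, the transcription factor of one SCLC subtype, read 213 against 372, a log2 ratio of -0.85 with a measurement SD of 0.11. ENO2, the neuron-specific enolase, read 620 against 770, and YAP1, the mark of SCLC with little neuroendocrine character, read 6522 against 6750. CHGA, chromogranin A, read 72.2 against 10.2 and was at least 2.44-fold higher. NCAM1 read 25.5 against 7.20 on its brightest probe, too dim for a fold. DDC, GRP, INSM1, POU2F3, SYP and UCHL1 were not well above background on either array.

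So these 6 SCLC markers were at background on the arrays where CKB was bright. NEUROD1, ENO2 and YAP1, well above it on both, had ratios below 0, except that YAP1 had 0.02 with spike-in scaling. The plot of gene lists shows CKB to the right of the other creatine genes and of these markers, apart from CHGA. There CHGA stands at 2.78, with its dim siGFP signal at its own level. With that signal set to the lowest one well above background, the log2 ratio of CHGA was 1.29, against 2.00 for CKB. The order of CKB and CHGA is therefore not known.

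Striated muscle genes, listed because CKM and CKMT2 are muscle enzymes, had a median of 0.23, with 6 of 18 compared and 0 at least 2-fold apart. TNNT1, the slow troponin T, read 6296 against 3275, a log2 ratio of 0.90 with a measurement SD of 0.06, and TNNT3, the fast form, had -0.11 and -0.33 on its 2 probes. The heavy chains MYH2, MYH6 and MYH7 and the giant protein TTN were at background on both arrays, like CKM and CKMT2.

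**Figure D4:**
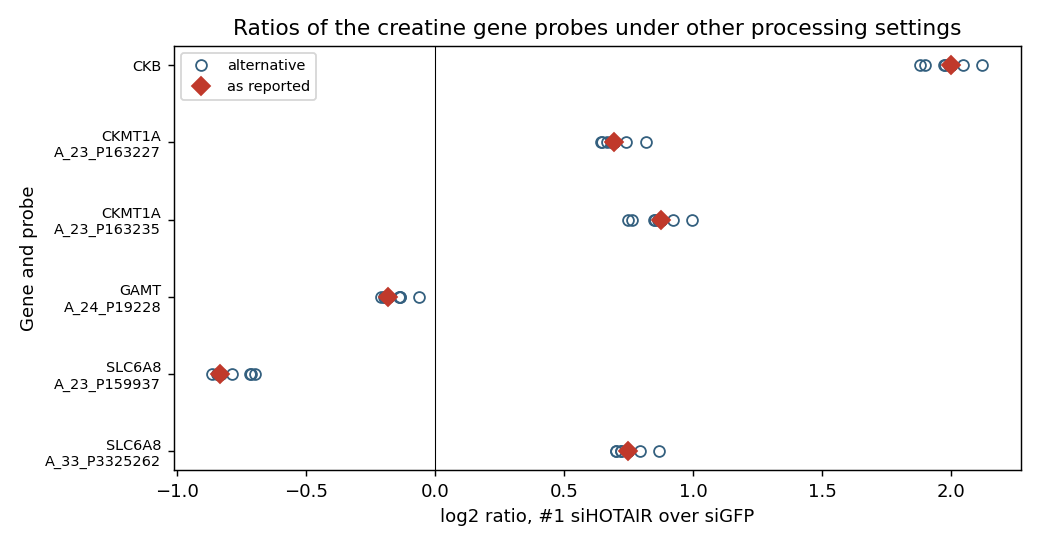
Log2 ratios of the 6 creatine gene probes as reported (diamonds) and under the alternative ways of scaling, background correction and filtering (circles). CKB stays between 1.88 and 2.12, and each probe keeps its side of 0.

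The plot of settings shows that the scaling and background steps moved each ratio by much less than the gap between CKB and the others. CKB stayed far to the right of the other probes under each of the 11 alternatives. Those that changed only the filter, the dim signals or the upper rows could not move its ratio.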

How the data were processed

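Expression was measured in SBC-3 cells on 2 one-colour arrays (Sure Print G3 Human GE 8x60K), 1 for #1 siHOTAIR and 1 for siGFP, both named by the sample labels. The authors labelled total RNA with Cy3 and extracted the spots with Agilent Feature Extraction 10.10.1.1. Each processed signal they deposited is an intensity with background and spatial trends removed, and it is not scaled between arrays. The deposited series value table holds the background-subtracted intensity of the same spots and served as an alternative.

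From the log2 of each processed signal that of the array's 75th percentile was subtracted, control spots left out. Outlier spots were dropped and spots of a probe averaged. Probes entered the comparison if 50% or more of their spots passed the software's test of being well above background on either array. Where 1 side was dim, "at least" folds raise it to the lowest passing spot signal of its array, unless its own was higher. Probes were named through their RefSeq accessions and a GRCh38.p14 gene table, which matched 96.8% of NM_ and 85.4% of NR_ probes and was used for names and gene order. Measurement SDs come from probes printed 10 times, binned into 6 signal levels, and cover error within an array.

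The share of probes that passed was 52.1% for #1 siHOTAIR and 55.3% for siGFP, and the number of arrays limits the precision. The members and lists were chosen with earlier results of these data known. Of a list, the text names genes that differed at least 2-fold, the highest and lowest on both arrays, and SCLC markers and neighbours of CKB; some listed genes are not reported here. Calling was tested on simulated data. Normexp (limma 3.58.1, R 4.3.3, offset 50) used each spot's median pixel signal, because the files analysed here hold no mean. Other work was done in Python 3.11.15.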

Additional observations from a re-analysis of the deposited data

How the results depend on the processing

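The ratios and the count of the creatine gene probes were recomputed under quantile normalization, scaling to detected probes' median, spike-in scaling or none, normexp or no background correction, the series value table, a stricter or no filter, dim signals at their bound, and without the upper rows of the array, and the list medians under the scaling and background settings and with the probes of a gene combined. The log2 ratio of CKB was 2.12 with spike-in scaling, 1.90 with normexp and 1.88 without background correction. It moved by less than the measurement SD under quantile normalization, scaling to detected probes' median, no scaling and the series value table. The filters, the bound on dim signals and the upper rows could not move it, since CKB passed on both arrays and lay outside those rows. The probes of CKMT1A ranged from 0.64 to 0.82 and from 0.75 to 1.00, those of SLC6A8 from -0.86 to -0.70 and from 0.70 to 0.87, and GAMT from -0.21 to -0.06. The number of member probes past the threshold was 1 at 2-fold and 5 at 1.5-fold. Spike-in scaling moved the median of all compared probes from 0.01 to 0.13. With it, the medians turned positive for the arginine, glycine and methyl list (0.06), the SLC6 list (0.07) and the SCLC markers (0.02). Other phosphotransfer enzymes ranged from -0.01 to 0.14. The median of the creatine genes was 0.37 when the probes of a gene were combined by their median, which sets the opposite SLC6A8 probes against each other, and 0.84 with spike-in scaling. No paired analysis was possible because there was 1 array per condition. For the same reason no replicate could be left out, and the spread between cultures is unknown.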
